A study of Homo sapiens with 8 samples.

Results

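The DEAD-box and DEAH-box RNA helicases were followed gene by gene in IMR32 cells given CR31B or its vehicle. Members were the protein-coding genes whose symbol is DDX or DHX followed by a number and at most 1 letter, without DDX1 and DDX3Y, and whose mean level over the 8 libraries was at least 1 CPM (read counts scaled to a common library total). Of 58787 gene identifiers in the deposited table, 53 protein-coding genes had such a symbol and 46 of these reached the level. Of the 7 that did not, DDX47 stood at 0.267 CPM, DDX60 at 0.0846 CPM and DHX58 at 0.0769 CPM, while DDX43, DDX4, DDX60L and DDX53 had 0 counts in every library, which allows a level of up to 0.0687 CPM in the shallowest one. The lowest members inside the threshold were DDX25 at 3.21 CPM and DDX58 at 4.39 CPM, so that a threshold of 0.5 CPM would have kept the same number of genes.

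IMR32 is an established human neuroblastoma line with amplified MYCN, labelled as wild type, as a neuroblast and as brain tissue, and each group was 1 culture condition of this single line. The CR31B group received the compound at its half-maximal inhibitory concentration (no number is given in the labels) and the control group received 0.1% DMSO, both after 48 h of attachment and a change of medium, and RNA was taken at 6 h. Each group has 4 libraries, which the series calls biological replicates. Nothing in the labels says whether they came from separate passages, so that p-values measure the spread between these libraries.

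DEAD-box and DEAH-box proteins are ATP-dependent enzymes that unwind RNA duplexes, strip proteins from RNA or clamp onto it. They are named after the amino acids of motif II, a short stretch in the helicase core that takes part in binding and splitting ATP. Nearly every step in the life of an RNA uses some of them: ribosome assembly in the nucleolus, the rearrangements of the spliceosome, export through the nuclear pore, translation and decay. CR31B is a synthetic rocaglate, and rocaglates lock the translation initiation factor eIF4A, itself a DEAD-box protein, onto purine-rich RNA. The eIF4A genes carry other symbols and are not members.

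Before any result, the libraries labelled replicate 1 need a description. They were sequenced paired-end in both groups and the other 6 libraries single-end, and in replicate 1 the differences between the groups ran opposite to those of replicates 2 to 4. Among genes that passed the test in replicates 2 to 4, the sign was reversed in replicate 1 for 98.8%. The helicases did the same, as given below, so the counts of called genes and the paralog shares are given over all 8 libraries as labelled and within the 6 single-end libraries. Differences of single genes are those of the single-end libraries unless the 8 libraries are named. Depth was 43687828 to 64715535 counts per library, protein-coding genes took 98.3% to 98.6% of them although the labels name a small RNA kit, and the 46 helicase genes together took 0.552% to 0.620%. All 11 neuroblast markers examined had a mean of 1 CPM or more, whereas 13 of 14 markers of connective tissue, blood, vessel and epithelial cells did not, 4 of them at 0, with COL1A1 at 23.5 CPM the exception. Summed, the neuroblast markers stood at 3823 to 4125 CPM in the single-end CR31B libraries and 2889 to 2961 CPM in the single-end DMSO libraries, and at 2960 and 3966 CPM in CR31B and DMSO replicate 1. The markers did not move together. In the single-end libraries 5 passed as higher and 4 as lower (beside 23.8% and 17.6% of all genes), with a median log2 difference of -0.015. HAND2 (mean 1328 CPM with CR31B, 678 with DMSO) and GATA3 (886 and 259) had the largest rises in CPM. Summed markers of other cell types stood at 22.2 to 32.7 CPM and 25.6 to 31.3 CPM in the single-end groups. The part of either in the results below was not tested. In bulk RNA, fewer cells of a type and less RNA per cell cannot be told apart.

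The symbols were checked against the coding sequence of each gene's principal GENCODE transcript (release 29, GRCh38). Codons for a motif II box were found in frame in 45 of the 46: 24 with the classical DEAD box, 9 with DEAH, 5 with another DExD box and 7 with another DExH box. DHX32 had none of these. The stretches below belong to members whose values per library are given further on. They are printed with the 4 codons of the box in capitals and 18 bases on either side, 5′ to 3′. The box does not follow the results: DDX5, lower with CR31B in the single-end libraries, and DDX42, higher, have the same box bases.

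DDX5: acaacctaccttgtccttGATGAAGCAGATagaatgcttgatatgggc

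DDX17: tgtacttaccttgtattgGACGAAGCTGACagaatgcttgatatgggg

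DDX6: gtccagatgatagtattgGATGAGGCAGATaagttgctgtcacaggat

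DDX42: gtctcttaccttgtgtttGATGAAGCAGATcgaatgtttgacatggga

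DDX19A: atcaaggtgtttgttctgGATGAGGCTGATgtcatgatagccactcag

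DDX19B: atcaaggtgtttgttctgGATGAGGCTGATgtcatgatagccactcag

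DDX39A: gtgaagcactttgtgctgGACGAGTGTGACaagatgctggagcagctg

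DDX39B: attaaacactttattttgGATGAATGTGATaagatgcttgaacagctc

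DDX21: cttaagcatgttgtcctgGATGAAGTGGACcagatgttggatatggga

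DHX16: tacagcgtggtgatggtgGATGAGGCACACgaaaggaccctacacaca

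DHX9: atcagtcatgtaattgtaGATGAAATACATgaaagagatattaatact

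DDX58: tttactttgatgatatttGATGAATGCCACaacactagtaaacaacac

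The DDX19A and DDX19B stretches are the same letter for letter, which bears on how far their counts can be told apart, while DDX39A and DDX39B encode the same box with different codons.

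Levels per length spanned a 323-fold range. DDX21, a nucleolar helicase of ribosomal RNA synthesis, was highest at 92.1 CPM per kb of exon (67.5 to 116 over the libraries). DDX5, a coregulator of transcription and microRNA processing, followed at 75.3 CPM per kb (52.3 to 106). Their ranges overlap, as do those of DDX5 and DHX9 at 67.6 CPM per kb, so that the order of these 3 is not settled. At the other end stood DDX25, a helicase known from the testis, at 0.285 CPM per kb, and DDX19A, of mRNA export, at 0.615 CPM per kb, whose ranges (0.193 to 0.410 and 0.495 to 0.742) do not overlap. Deposited counts of genes that share exonic bases with a neighbour may be split or lost: this touches DDX39B (30.8% of its exonic bases shared with same-strand genes, among them the readthrough ATP6V1G2-DDX39B), DDX19A (23.8%) and DDX19B (15.7%). DDX28 shares 22.5% with genes on the opposite strand, and the strand setting of the counts is not given in the sources used here.

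**Figure D1:**
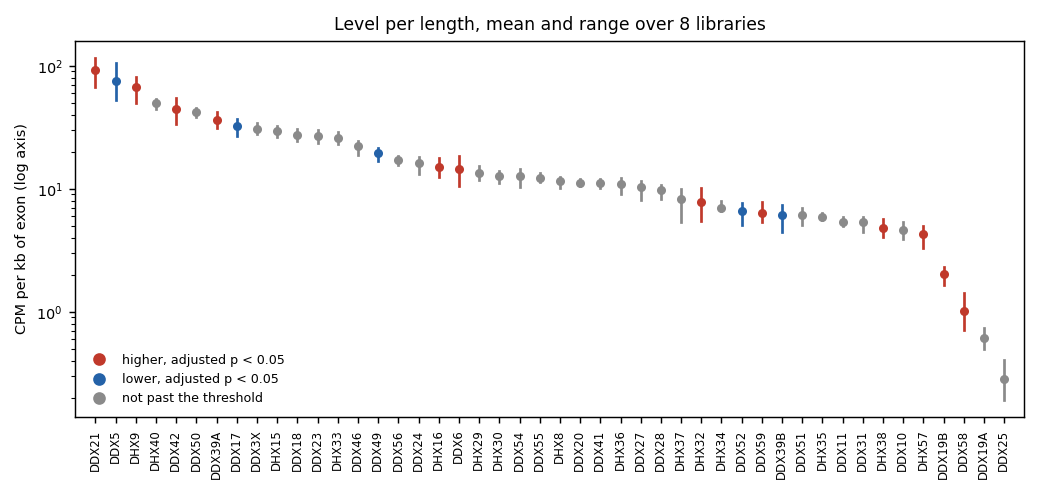
Level of the 46 helicase genes in CPM per kb of exon (log axis), as the mean (points) and the lowest to highest value (lines) over the 8 libraries, coloured by the call in the single-end libraries. Levels run from 92.1 (DDX21) to 0.285 (DDX25), and called genes lie across the whole range.

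The comparison of CR31B with DMSO asks how this helicase repertoire stands after 6 h of eIF4A inhibition. Over all 8 libraries as labelled, 0 of the 46 helicase genes passed the edgeR quasi-likelihood test at a Benjamini-Hochberg adjusted p of 0.05 with layout as covariate, beside 0% of 16518 tested genes. Without adjustment 0 helicase genes and 205 of all genes had a p under 0.05. DESeq2 and limma voom also called 0. The log2 differences ran from -0.37 for DDX5 to 0.36 for DHX32 with a median of -0.0061 (0.0043 over all tested genes), and the smallest adjusted p of a member was 0.707. For the genes described most fully below, the differences over 8 libraries were -0.37 (DDX5), 0.35 (DDX6), 0.20 (DDX21), 0.21 (DDX42), 0.30 (DDX58) and -0.12 (DDX39B), so that none of the single-end calls given below holds over the 8 libraries as labelled. CR31B and DMSO values overlapped for all 46 genes (0.66% of tested genes did not overlap).

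Within the 6 single-end libraries, 17 of the 46 helicase genes (37.0%) passed the threshold, beside 41.3% of all 16696 tested genes. Of these, 12 rose (26.1% of members, 23.8% of all genes) and 5 fell (10.9% of members, 17.6% of all genes), so that the share of calls was near the background. The changes were small: 0.23 to 0.73 in absolute log2 terms with a median of 0.36, at most 1.66-fold, and none reached 2-fold. The largest were the rises of DHX32 (0.69), DDX58 (0.68) and DDX6 (0.68) and the fall of DDX5 (-0.73). The median over all members was 0.022 (-0.007 over all tested genes). The 3 values of one group lay wholly above the other for 12 genes with CR31B higher and 8 with CR31B lower (26.1% and 17.4% of members, beside 27.7% and 24.4% of all genes).

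In the single-end libraries 23.8% of all genes were higher and 17.6% lower with CR31B. Of the 24 genes with the classical DEAD box, 4 were higher and 3 lower. Of the 9 DEAH genes 2 were higher and none lower, and of the 7 other DExH genes 3 were higher and none lower. Among the other DExD genes 2 were higher and 2 lower. By symbol, 12 of 31 DDX genes (38.7%) and 5 of 15 DHX genes (33.3%) passed the threshold, beside 41.3% of all tested genes. All 5 DHX calls were upward, and 7 of the DDX calls were upward and 5 downward. The counts per kind are small, and the difference between the kinds of gene was not tested.

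The direction split depended on the scaling. With upper quartile scaling, which moves the median of all genes to -0.10, 10 helicase genes were higher and 16 lower (18% and 27% of all genes), and with total counts 11 and 15 (19.1% and 25.1%). With offsets for GC content and length 10 were higher and 10 lower (19.3% and 20.1% of all genes). With the replicate number as a block, 12 were higher and 13 lower (28.1% and 23.1%). The 8 lower calls that the block added were DDX25, DHX37, DDX27, DDX51, DDX31, DDX23, DHX36 and DHX40. Leaving out CR31B replicate 2 raised the lower calls from 5 to 8 (16.5% of all genes).

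**Figure D2:**
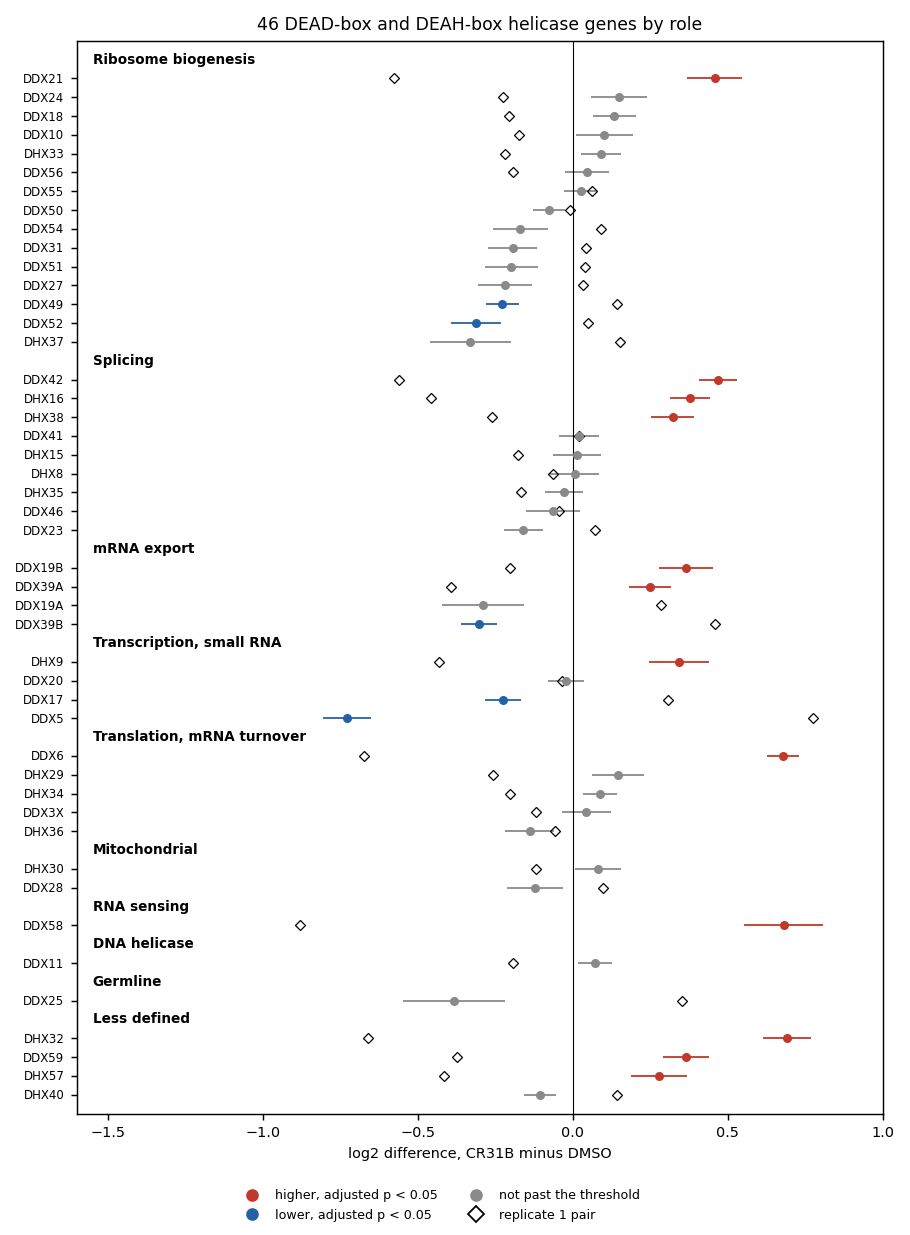
Log2 difference, CR31B minus DMSO, of the 46 helicase genes grouped by role: filled points with SE lines are the 6 single-end libraries (red higher, blue lower, grey not past an adjusted p of 0.05) and open diamonds the replicate 1 pair. The 12 red and 5 blue points lie on the other side of 0 from their diamonds.

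All 17 called genes had the opposite sign in replicate 1. Over the called-higher genes the median log2 difference between same-numbered libraries was -0.45 in replicate 1 and 0.52, 0.28 and 0.37 in replicates 2, 3 and 4. Over the called-lower genes it was 0.31 in replicate 1 and -0.18, -0.27 and -0.35 in the others. A test of the difference between the layouts itself, the interaction of treatment and layout, passed for 16 of the 46 helicase genes (34.8%), beside 42.5% of tested genes (edgeR quasi-likelihood, Benjamini-Hochberg). With 1 paired-end library in each group, the error of that test was estimated from replicates 2 to 4.

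**Figure D3:**
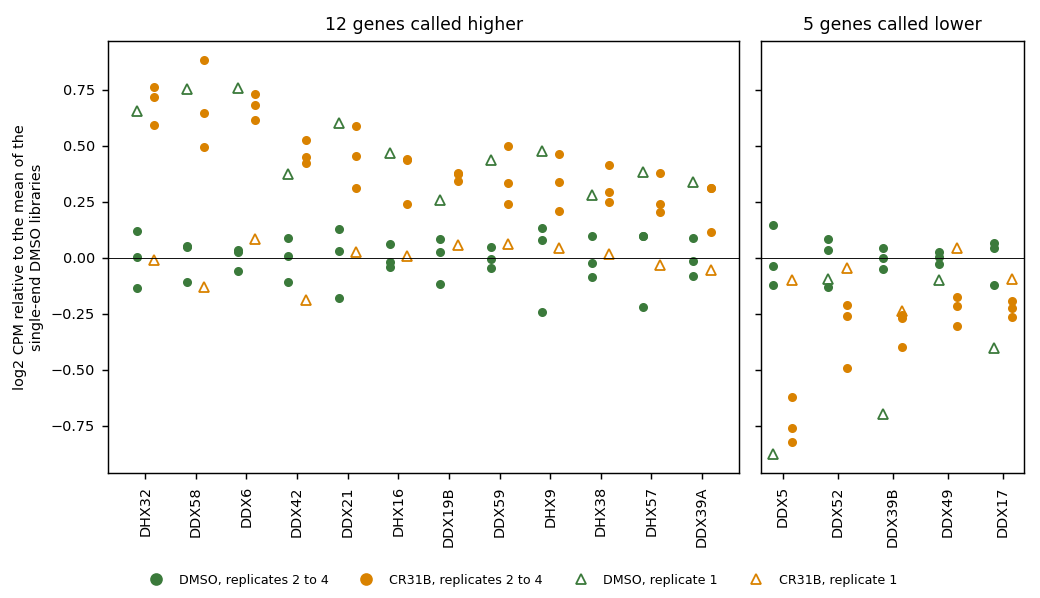
Level of the 17 called helicase genes in each library, as log2 CPM relative to the average of DMSO replicates 2 to 4 (circles single-end, triangles replicate 1; green DMSO, orange CR31B). For DDX6 the DMSO triangle lies with the orange circles and the CR31B triangle near the green ones, and for DDX5 the DMSO triangle lies below the orange circles.

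The ribosome biogenesis helicases act on precursors of ribosomal RNA in the nucleolus, and 15 members belong to them. In the single-end libraries 1 rose and 2 fell (6.67% and 13.3%, beside 23.8% and 17.6% of all genes), with a median of -0.078, and 12 did not pass. DDX21 (ENSG00000165732, chr10:68956128-68985073, plus strand), which couples ribosomal RNA transcription to its processing, stood at 390.3, 525, 476 and 576 CPM in CR31B replicates 1 to 4 and 582, 339, 391.9 and 419.7 CPM in DMSO replicates 1 to 4. All 3 single-end CR31B values lie above the single-end DMSO values, and DMSO replicate 1 is the highest of the 8. Its log2 difference was 0.46 ± 0.088 (SE, n = 3 against 3; edgeR adjusted p = 0.002).

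The 2 that fell were DDX52 and DDX49. DDX52, the homolog of yeast Rok1, stood at 66.3, 59.2, 48.8 and 57.2 CPM in CR31B replicates 1 to 4 and 64.1, 62.5, 70.2 and 72.6 CPM in DMSO replicates 1 to 4. The single-end groups do not overlap, CR31B replicate 3 is the lowest library, and DMSO replicate 1 lies among the values of its own group. The difference was -0.31 ± 0.081 (SE, n = 3 against 3; edgeR adjusted p = 0.0104). DDX49, needed for ribosomal RNA processing, stood at 59.9, 51.5, 47.1 and 50.1 CPM in CR31B replicates 1 to 4 and 54.3, 58.2, 57.0 and 59.2 CPM in DMSO replicates 1 to 4. CR31B replicate 1 was the highest of all 8, and the single-end groups are apart, with -0.23 ± 0.053 (SE, n = 3 against 3; edgeR adjusted p = 0.00617).

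Among the ribosome biogenesis genes that did not pass, DDX50, the paralog of DDX21, is the one whose values are given in full. DDX50 stood at 120.5, 114, 103 and 110.2 CPM in CR31B replicates 1 to 4 and 121, 113, 116 and 117 CPM in DMSO replicates 1 to 4. The single-end difference was -0.078 ± 0.051 (SE, n = 3 against 3; edgeR adjusted p = 0.253), with an interval of -0.18 to 0.024 (2 SE on either side). DDX50 was called lower with upper quartile scaling (-0.17, edgeR adjusted p = 0.00976) and with total counts (-0.16, edgeR adjusted p = 0.0164). The other 11 lay between -0.33 (DHX37, which frees the U3 small nucleolar RNA from the precursor) and 0.15 (DDX24), and DDX27 (-0.22), DDX51 (-0.20), DDX31 (-0.19) and DDX54 (-0.17) were also below 0. With the replicate block DHX37 (edgeR adjusted p = 0.00789), DDX27 (0.0316), DDX51 (0.0446) and DDX31 (0.0248) passed as lower. DHX37, DDX27, DDX51, DDX31 and DDX54 passed as lower with upper quartile and with total count scaling. Calls also came with 1 library left out: DDX18 passed as higher without CR31B replicate 3, DDX27 and DDX51 as lower without CR31B replicate 2, and DHX37 as lower without CR31B replicate 2 or 4. Calls in this group, the largest of the role groups, changed with the settings. With the replicate block 1 was higher and 6 lower (28.1% and 23.1% of all genes). Total counts gave 1 and 8 (19.1% and 25.1%), and GC and length offsets 1 and 3 (19.3% and 20.1%). Lower calls over all genes also rose under these settings, from 17.6%. CR31B replicate 3 was the lowest of the 6 single-end libraries for 10 of the 15, and for 22 of all 46 members.

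The splicing helicases drive the successive remodelling steps of the spliceosome, and 9 members belong to them. Of these, 3 rose in the single-end libraries and none fell (33.3% and 0%, beside 23.8% and 17.6% of all genes), and the median was 0.012. DDX42 (ENSG00000198231, chr17:63773603-63819317, plus strand), which binds the U2 small nuclear ribonucleoprotein, stood at 285, 444, 435 and 468 CPM in CR31B replicates 1 to 4 and 421, 302, 327 and 346 CPM in DMSO replicates 1 to 4. The single-end groups are far apart and DMSO replicate 1 sits close to the CR31B values, with a log2 difference of 0.47 ± 0.06 (SE, n = 3 against 3; edgeR adjusted p = 1.62e-04). DHX16, which acts just before the first splicing step, stood at 52.0, 69.9, 61.1 and 70.1 CPM in CR31B replicates 1 to 4 and 71.4, 50.1, 50.9 and 53.9 CPM in DMSO replicates 1 to 4. Its groups do not overlap within the single-end libraries, and the difference was 0.38 ± 0.065 (SE, n = 3 against 3; edgeR adjusted p = 0.00101). DHX38, which acts at the second step, had a difference of 0.32 (edgeR adjusted p = 0.00419).

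The other splicing helicases did not pass. DHX15, which takes the spliceosome apart, had a log2 difference of 0.012 with an interval of -0.14 to 0.17. DHX8, which releases the spliced mRNA, had 0.0054 with -0.15 to 0.17, and DDX23, which acts when the U4/U6.U5 particle joins, had -0.16 with -0.29 to -0.035 and passed as lower with the replicate block (edgeR adjusted p = 0.0147). DDX41, DHX35 and DDX46, which acts when U2 binds the branch site, lay between -0.065 and 0.02. DDX46 passed as lower with GC and length offsets (-0.28, edgeR adjusted p = 0.0342), and also with the replicate block added to them. DHX15 passed as lower only with the offsets and the block together.

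The 4 mRNA export helicases form 2 paralog pairs, and in both pairs one member had a positive and the other a negative difference. Of the 4, 2 rose and 1 fell (50% and 25%, beside 23.8% and 17.6% of all genes), shares that rest on few genes. DDX39B (ENSG00000198563, chr6:31530219-31542448, minus strand), also called UAP56, loads export factors onto spliced mRNA, and stood at 42.6, 41.7, 42.0 and 38.2 CPM in CR31B replicates 1 to 4 and 31.0, 48.6, 50.2 and 51.8 CPM in DMSO replicates 1 to 4. The single-end groups do not overlap, and DMSO replicate 1 is the lowest of the 8. Its difference was -0.30 ± 0.058 (SE, n = 3 against 3; edgeR adjusted p = 0.00193). DDX39A, its paralog, stood at 122, 157, 137 and 157 CPM in CR31B replicates 1 to 4 and 160.5, 119.7, 126 and 135 CPM in DMSO replicates 1 to 4. Here DMSO replicate 1 was the highest library, and the difference was 0.25 ± 0.067 (SE, n = 3 against 3; edgeR adjusted p = 0.013). Upper quartile scaling ended this call, as did leaving out CR31B replicate 4 or DMSO replicate 2.

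DDX19B and DDX19A release mRNA from its carrier proteins at the nuclear pore. DDX19B stood at 8.43, 10.5, 10.3 and 10.5 CPM in CR31B replicates 1 to 4 and 9.70, 7.49, 8.59 and 8.25 CPM in DMSO replicates 1 to 4. The 3 single-end CR31B values lie close together and above every single-end DMSO value, and the difference was 0.37 ± 0.087 (SE, n = 3 against 3; edgeR adjusted p = 0.00683). DDX19A stood at 5.09, 4.77, 3.90 and 4.62 CPM in CR31B replicates 1 to 4 and 4.17, 4.58, 5.85 and 5.82 CPM in DMSO replicates 1 to 4. Its difference of -0.29 ± 0.13 (SE, n = 3 against 3; edgeR adjusted p = 0.108) did not pass. It was called lower with upper quartile and with total count scaling, and without DMSO replicate 2. The principal transcripts of DDX19A and DDX19B share 582 windows of 75 bases letter for letter (19.9% and 17.6% of their windows), and their coding sequences are 95.3% identical, and how the counting treated reads that fit both is not given in the sources used here.

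The 4 helicases of transcription and small RNA processing held the largest fall. DDX5 (ENSG00000108654, chr17:64499616-64508199, minus strand), also called p68, stood at 661, 460.5, 401 and 419 CPM in CR31B replicates 1 to 4 and 386, 651, 783 and 691 CPM in DMSO replicates 1 to 4. The single-end groups are far apart, and the library labelled DMSO replicate 1 was the lowest of all 8. The single-end means were 427 ± 30.4 CPM with CR31B and 708 ± 67.7 CPM with DMSO (SD, n = 3 each), and the log2 difference was -0.73 ± 0.077 (SE, n = 3 against 3; edgeR adjusted p = 4.17e-05). DDX17, its paralog p72, stood at 331, 303, 309.8 and 294 CPM in CR31B replicates 1 to 4 and 268, 326, 371 and 365 CPM in DMSO replicates 1 to 4. DMSO replicate 1 was again the lowest, and the single-end difference was -0.23 ± 0.059 (SE, n = 3 against 3; edgeR adjusted p = 0.0111), though leaving out DMSO replicate 4 gave an edgeR adjusted p of 0.0553.

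DHX9, RNA helicase A, which resolves structured RNA and R-loops in the nucleus, stood at 341, 419, 383 and 457 CPM in CR31B replicates 1 to 4 and 461, 281, 349.7 and 364 CPM in DMSO replicates 1 to 4. The single-end groups do not overlap, and DMSO replicate 2 is the lowest library. Its difference was 0.34 ± 0.096 (SE, n = 3 against 3; edgeR adjusted p = 0.0162), and the call ended with GC and length offsets (0.23, edgeR adjusted p = 0.0869) and without CR31B replicate 4 (edgeR adjusted p = 0.0697). DDX20, the Gemin3 subunit of the SMN complex, had a difference of -0.023 with an interval of -0.14 to 0.094. DDX20 passed as lower only with GC and length offsets and the replicate block together.

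Of 5 helicases of translation and mRNA turnover, 1 rose and none fell in the single-end libraries, with a median of 0.087. These are 20% and 0%, beside 23.8% and 17.6% of all genes. DDX6 (ENSG00000110367, chr11:118747766-118791149, minus strand) represses mRNA translation, promotes decapping by other proteins and is docked by the CCR4-NOT complex. It stood at 133, 192, 202 and 208 CPM in CR31B replicates 1 to 4 and 213, 121, 129 and 128 CPM in DMSO replicates 1 to 4. The single-end groups are far apart and narrow, with DMSO replicate 1 the highest of the 8 libraries. The single-end means were 201 ± 8.01 CPM with CR31B and 126 ± 4.47 CPM with DMSO (SD, n = 3 each), and its difference of 0.68 ± 0.052 (SE, n = 3 against 3; edgeR adjusted p = 6.03e-06) had the smallest adjusted p of the family.

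The helicases that act in translation initiation did not pass with the 6 single-end libraries. DDX3X (ENSG00000215301, chrX:41333284-41364472, plus strand), which unwinds structured leaders during initiation, stood at 442, 504, 462 and 541 CPM in CR31B replicates 1 to 4 and 480.3, 443, 486 and 535 CPM in DMSO replicates 1 to 4. The groups overlap, and the difference was 0.043 ± 0.078 (SE, n = 3 against 3; edgeR adjusted p = 0.694) with an interval of -0.11 to 0.20. Its sign was not stable: it was -0.21 with GC and length offsets, which reached an edgeR adjusted p of 0.00984 once the replicate block was added, -0.054 under upper quartile scaling and -0.037 under total counts. DHX29, which helps the scanning ribosome past structure, stood at 60.4, 71.7, 56.2 and 68.4 CPM in CR31B replicates 1 to 4 and 72.3, 56.9, 59.9 and 60.8 CPM in DMSO replicates 1 to 4. CR31B replicate 3 is the lowest of the 8, and the difference was 0.14 ± 0.083 (SE, n = 3 against 3; edgeR adjusted p = 0.19). Without that library it was 0.25 and passed (edgeR adjusted p = 0.00409). DHX36, which unwinds G-quadruplexes, stood at 120.0, 111, 96.0 and 119.8 CPM in CR31B replicates 1 to 4 and 125, 114, 119 and 128 CPM in DMSO replicates 1 to 4, with a difference of -0.14 ± 0.079 (SE, n = 3 against 3; edgeR adjusted p = 0.189). It was called lower with GC and length offsets (-0.38, edgeR adjusted p = 0.00389), with the replicate block (edgeR adjusted p = 0.0453) and with 2 other scalings. DHX34, of nonsense-mediated decay, had a difference of 0.087.

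The remaining members belong to small groups. DDX58, also called RIG-I, is the cytosolic sensor of viral RNA with a 5′ triphosphate and the one RNA-sensing helicase above the threshold. DDX58 (ENSG00000107201, chr9:32455705-32526324, minus strand) stood at 3.10, 6.25, 4.78 and 5.31 CPM in CR31B replicates 1 to 4 and 5.73, 3.51, 3.52 and 3.15 CPM in DMSO replicates 1 to 4. Its single-end groups are apart at a low level, and the difference was 0.68 ± 0.13 (SE, n = 3 against 3; edgeR adjusted p = 0.00177). The related sensors DHX58 and DDX60 were below the level threshold. The mitochondrial ribosome helicases DHX30 and DDX28 had differences of 0.081 and -0.12 and neither passed. DDX11, a DNA helicase of sister chromatid cohesion with a pseudogene copy, had 0.07. DDX25 stood at 2.76, 2.59, 3.52 and 2.80 CPM in CR31B replicates 1 to 4 and 2.16, 3.22, 4.58 and 3.87 CPM in DMSO replicates 1 to 4, with a difference of -0.38 ± 0.17 (SE, n = 3 against 3; edgeR adjusted p = 0.0884). It passed as lower with the replicate block (edgeR adjusted p = 0.00995) and with GC and length offsets (edgeR adjusted p = 0.0135), and without CR31B replicate 3 or DMSO replicate 2.

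Of 4 members with less defined roles 3 rose (75%, beside 23.8% of all genes, a share that rests on few genes), with a median of 0.32. DHX32 (ENSG00000089876, chr10:125836337-125896436, minus strand), the member without a recognised motif II box, stood at 23.6, 35.7, 38.9 and 40.1 CPM in CR31B replicates 1 to 4 and 37.3, 21.6, 25.7 and 23.8 CPM in DMSO replicates 1 to 4. The single-end groups do not overlap, and DMSO replicate 1 lies among the CR31B values. The single-end means were 38.2 ± 2.30 CPM with CR31B and 23.7 ± 2.08 CPM with DMSO (SD, n = 3 each), and its difference was 0.69 ± 0.077 (SE, n = 3 against 3; edgeR adjusted p = 5.99e-05). For DHX32, 10.4% of the exonic bases lie opposite BCCIP. DDX59 (0.36) and DHX57 (0.28) also rose, the latter with a call that ended with upper quartile, total count and GC and length scaling and without CR31B replicate 4 or DMSO replicate 2. DHX40 gave -0.11 and did not pass, though it did with the replicate block (edgeR adjusted p = 0.0475) and with GC and length offsets (edgeR adjusted p = 0.00658).

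Of the 17 calls, 13 held under all 10 other settings and without each of the 6 single-end libraries in turn, 9 of them higher and 4 lower. The 4 that did not were DHX9, DHX57, DDX39A and DDX17. How many of all called genes held in this way was not counted, so these numbers do not set the helicases apart. Among the 29 uncalled members, 21 had an absolute log2 difference under 0.15.

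Within paralog pairs, the share of one member in the length-scaled counts of the pair was compared between groups. Over 8 libraries the share of DDX39A in its pair was 86.3% ± 1.91 with CR31B and 84.2% ± 4.15 with DMSO (SD, n = 4 each; two-sided exact permutation test p = 0.429, adjusted over 4 pairs 0.429). DDX19A made up 21.1% ± 3.31 and 25.7% ± 4.11 of its pair (exact permutation p = 0.171, adjusted 0.419). DDX17 made up 32.6% ± 3.97 and 28.7% ± 3.54 of DDX17 plus DDX5 (exact permutation p = 0.229, adjusted 0.419), and DDX50 30.1% ± 4.45 and 34.0% ± 4.38 of DDX50 plus DDX21 (exact permutation p = 0.314, adjusted 0.419). None passed an adjusted p of 0.05, and the smallest p that 4 against 4 can give is 0.0286.

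Within the single-end libraries the 4 shares did not overlap between groups. DDX39A took 85.6% to 88.3% with CR31B and 81.8% to 82.6% with DMSO. DDX19A took 17.9% to 20.7% and 26.0% to 28.8%, DDX17 32.7% to 36.3% and 25.9% to 28.1%, and DDX50 26.3% to 28.8% and 34.2% to 38.4%. With 3 libraries against 3 the exact permutation test cannot go below p = 0.1, the value each pair gave. The principal transcripts of the DDX39, DDX5 and DDX21 pairs share no window of 75 bases, and their coding sequences are 80.02%, 71.3% and 71.6% identical.

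**Figure D4:**
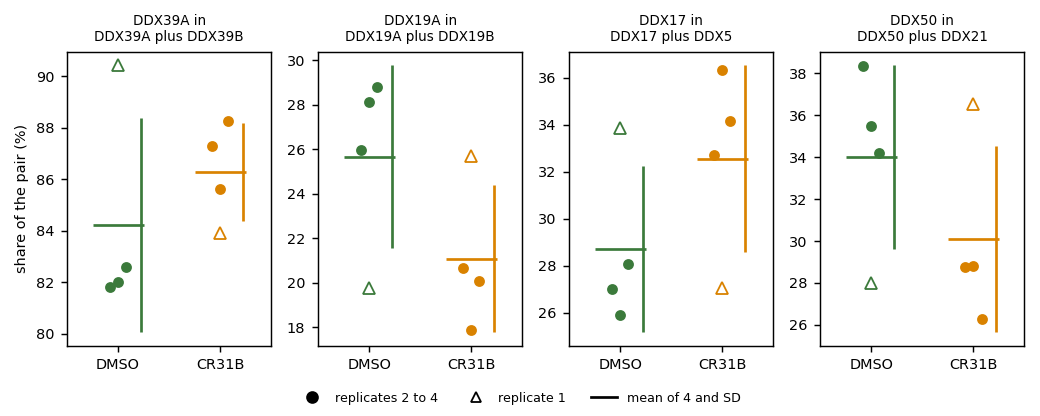
Share of one member in the length-scaled counts of 4 paralog pairs, in percent, for each library (circles replicates 2 to 4, triangles replicate 1), with the mean and SD of 4 libraries as lines. The axes do not start at 0. In each panel the circles of the groups are apart and each triangle is shifted toward the other group.

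Helicases act with adaptor proteins, and 33 such partner genes were examined, of which 11 rose (33.3%, beside 23.8% of all genes) and 6 fell (18.2%, beside 17.6%) in the single-end libraries, with a median of 0.044. With GC and length offsets 8 were higher (24.2%, beside 19.3%) and 7 lower (21.2%, beside 20.1%). Of the 7 partners of DDX6, 5 rose and none fell, beside 23.8% and 17.6% of all genes. The 5 were CNOT1, the scaffold of the CCR4-NOT deadenylase that docks DDX6, EIF4ENIF1, EDC4, LSM14A and EDC3. CNOT1 stood at 322, 635, 644 and 673 CPM in CR31B replicates 1 to 4 and 637, 333, 301 and 325 CPM in DMSO replicates 1 to 4. Its single-end difference was 1.03 ± 0.056 (SE, n = 3 against 3; edgeR adjusted p = 8.7e-07), and DMSO replicate 1 lies with the single-end CR31B values. EIF4ENIF1, which links eIF4E to DDX6, had a difference of 0.53, whereas EDC4 (0.26), LSM14A (0.17) and EDC3 (0.15) were smaller. With GC and length offsets 3 of the 7 stayed above the threshold, and LSM14A (0.070, edgeR adjusted p = 0.345) and EDC3 (0.14, edgeR adjusted p = 0.0634) did not. PATL1 (0.015) and LSM14B (-0.0007) did not pass.

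Of the 8 G-patch and other cofactors of DHX15, 4 rose and none fell, beside 23.8% and 17.6% of all genes, and DHX15 itself did not pass. NKRF, a nucleolar cofactor, stood at 28.2, 47.2, 48.2 and 51.7 CPM in CR31B replicates 1 to 4 and 49.1, 25.1, 31.2 and 30.7 CPM in DMSO replicates 1 to 4, with 0.76 ± 0.084 (SE, n = 3 against 3; edgeR adjusted p = 5.75e-05). TFIP11, which brings DHX15 to the spliceosome for disassembly, stood at 21.6, 34.5, 36.1 and 36.5 CPM in CR31B replicates 1 to 4 and 35.7, 19.0, 24.6 and 23.4 CPM in DMSO replicates 1 to 4, with 0.68 ± 0.09 (SE, n = 3 against 3; edgeR adjusted p = 1.95e-04). PINX1 (0.46) and CMTR1 (0.20) were the other 2. In the export pairs 2 subunits of the THO complex, which works with DDX39B, fell: THOC1 (-0.46) and THOC5 (-0.19), while THOC2 (0.046) and ALYREF (-0.10) did not pass.

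The Microprocessor genes DROSHA (0.23) and DGCR8 (0.30), whose complex DDX5 and DDX17 assist, both rose, while DDX5 and DDX17 fell. With GC and length offsets the value of DROSHA was 0.10 and no longer passed (edgeR adjusted p = 0.149). GEMIN4 (-0.27) and GEMIN5 (-0.22) of the SMN complex fell, and the other subunits SMN1 (-0.075) and GEMIN2 (0.02), like DDX20, did not pass. GPATCH1 (-0.33), a cofactor of DHX35, and CASC3 (-0.27), which joins EIF4A3 in the exon junction complex, also fell. Over all 8 libraries 0 partner genes passed, and in replicate 1 the called partners ran the other way, GEMIN5 (-0.042) excepted.

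**Figure D5:**
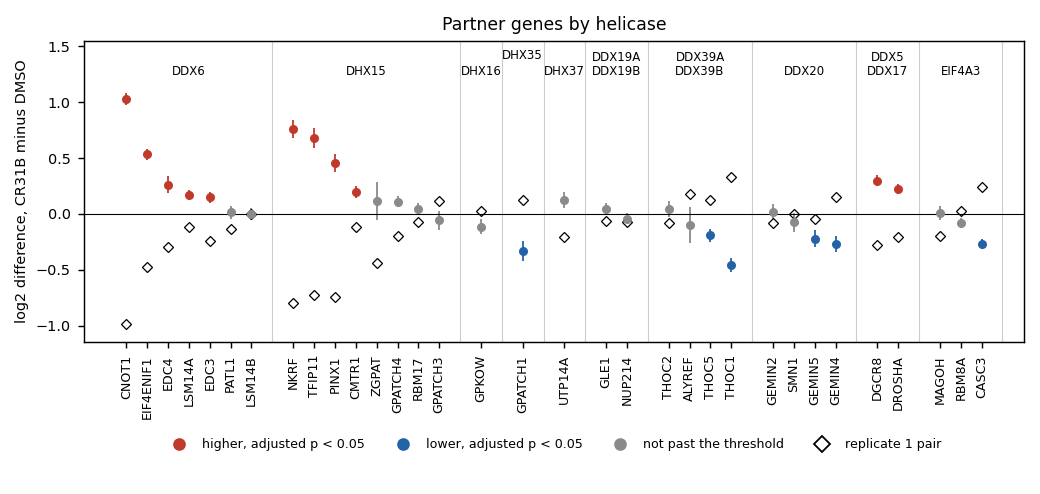
Log2 difference, CR31B minus DMSO, of 33 partner genes grouped by the helicase they work with (points and SE lines, 6 single-end libraries; open diamonds, the replicate 1 pair). CNOT1 of the DDX6 group is highest at 1.03 and THOC1 of the DDX39 group lowest at -0.46.

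Promoters were read from RefSeq (GRCh38.p14), from 250 bases before to 50 bases after the start, for the 42 members that matched. The hexamer CACGTG, the E-box bound by MYC-family factors, was searched because IMR32 carries amplified MYCN. Read on either strand, it was in 8 of the 42 (19.0%), beside 7.26% of all promoters of that length and 10.1% of those of tested genes. The 8 held 1 gene called higher (DHX32), 1 called lower (DDX5) and 6 not called. For both called genes the RefSeq start lies downstream of the outermost GENCODE 29 start, so both hexamers fall inside the GENCODE 29 gene span. The windows of the 2 called genes are printed with 12 bases on either side and the hexamer in capitals, 5′ to 3′ on the minus strand: DDX5 at chr17:64506651-64506680, where it starts 30 bases before the start and opposite the first exon of CEP95, and DHX32 at chr10:125881390-125881419, where it starts 115 bases before the start and in no exon of GENCODE 29.

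DDX5: gggtggtacagcCACGTGacaacgccaggc

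DHX32: ggattaggtgacCACGTGattgattagcct

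GGAAGT, the core of sites for ETS-family factors, was in 19 of the 42 (45.2%, beside 22.8% of all promoters and 26.1% of those of tested genes), of which 4 were higher, 2 lower and 13 not called. CCAAT was in 18 (42.9%, beside 34.6% and 36.2%), of which 5 were higher, none lower and 13 not called. TATAAA was in 2, DDX39B and DHX32 (4.76%, beside 11.5% and 5.52%), and TGATGNAA, the stress-response element read by ATF4, was in 0 of 42 (beside 3.62% and 1.59%). No motif contains another, each was searched on both strands, and a match describes letters, not binding.

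Because rocaglates hold eIF4A on purines, the longest unbroken run of A and G in each annotated 5′ leader was also measured. Helicase leaders had a median longest run of 7.5 bases (8 over 12709 tested genes), and 8.70% had a run of 12 bases or more, beside 20.3% of tested genes. Such a run was in 25% of the 12 members called higher, 0% of the 5 called lower and 3.45% of the 29 not called. These are few genes, and the difference was not tested. DDX17, without an annotated leader in its principal transcript, is counted among the members, while the 12709 genes all have one. The 4 members with such a run were DDX3X (not called), DDX42, DHX32 and DDX59 (called higher), shown with the run in capitals and 6 bases on either side.

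DDX3X: ggaactGAGAGAGGAAGAAGAGtgaagg

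DDX42: gggggcGGAGAGGAAGGAGcgcggc

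DHX32: gttaacAGAAAAAAAAAAAAtaatgc

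DDX59: gagcctGGAAGGGGGAGAcggccc

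The run of DDX3X was the longest at 16 bases, in a gene whose mRNA level did not pass in either set of libraries. mRNA levels say nothing here of how the leaders were translated.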

How the data were processed

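Polyadenylated RNA was counted per gene in 8 libraries of IMR32 cells (CR31B or DMSO, 4 each). The authors deposited 1 table of raw counts per Ensembl gene. Per the submitters' processing notes, FastQC 0.11.7, STAR 2.7.2b, edgeR 3.36.0 and limma 3.50.3 were used with GRCh38. The counting tool, annotation and strand setting are not given in the sources used here. Counts include PCR duplicates, so that limits from depth cover counting error only. Of the identifiers, 58515 were in GENCODE 29, from which symbols, coordinates and exon lengths were taken.

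Counts were tested across all genes with edgeR 4.0.16 in R 4.3.3 (filterByExpr, TMM, glmQLFit and glmQLFTest, two-sided, Benjamini-Hochberg, threshold 0.05), over 8 libraries with layout as covariate and over the 6 single-end libraries. Levels are TMM-normalised CPM. The scripts were tested on simulated counts. The smallest mean chi-square per gene between 2 libraries was 7.32 (1 for 2 draws of 1 library), so none was a duplicate. Replicate numbers paired the single-end libraries (correlations of deviations 0.208, 0.388 and 0.157), so the block is printed where it changed a count.

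Alternatives were RLE, upper quartile, total count and GC and length scaling, a replicate block, 2 filters, DESeq2 1.42.0, limma 3.58.1 voom, and leaving out each library. The single-end libraries set against the 8-library counts were an alternative chosen after seeing the data. The members and lists were chosen with earlier results of these data known. Values per library are given for up to 6 members with the largest change in each direction among those past the threshold in the single-end libraries (5 were lower), 8 fixed members, 3 paralog pairs and the extremes of level, and of the other lists for the eIF4A genes and the 3 largest calls. Other members are named within their group, and further partner and helicase genes were named after their values were seen. Of the promoters, DDX18, DHX33, DDX52 and DDX49 were not matched, and DDX58 was matched as RIGI.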

Additional observations from a re-analysis of the deposited data

Results flagged for a closer look

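In groups of 4 libraries, the highest or lowest value of a gene was set against the rest by its gap to the nearest other library divided by the whole range, against Dixon's 95% limit. Of 66 groups examined, 9 were past it, and in all 9 the distant library was replicate 1. A chance count of about 3.3 would hold only for independent groups chosen without regard to their values. These groups share the same libraries, and many of the genes were chosen by their change in the single-end libraries, without replicate 1. That choice favours replicate 1 as the distant library, so the count of 9 cannot be set against chance. Among the helicases these were DDX6 with DMSO (0.912), DDX58 with DMSO (0.856), DDX39B with DMSO (0.844) and DDX19B with CR31B (0.883), and the share of DDX39A in its pair with DMSO (0.908). Among the other genes named they were EIF4A2 with DMSO (0.864), CNOT1 with CR31B (0.891) and DMSO (0.905), and TFIP11 with CR31B (0.869).

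The difference between libraries labelled CR31B and DMSO changed with the sequencing layout for 16 helicase genes, by the interaction of treatment and layout (edgeR quasi-likelihood, adjusted p under 0.05). That is 34.8% of the helicase genes, below the 42.5% of all tested genes that passed the same test. Layout and replicate number cannot be told apart, since the paired-end libraries are replicate 1 of each group. By mean chi-square per gene, CR31B replicate 1 stood at 9.549, 17.35 and 15.01 from DMSO replicates 2 to 4. From CR31B replicates 2 to 4 it stood at 96.07, 145.6 and 113.3. DMSO replicate 1 stood at 10.43, 21.28 and 8.386 from CR31B replicates 2 to 4, and at 111.4, 103.6 and 91.82 from DMSO replicates 2 to 4. The cause was not tested.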

How the results depend on the processing

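Over 8 libraries, 0 helicase genes were called under every other scaling, filter, tool and block, and leaving out 1 library gave 0 to 17 calls, 0 to 12 higher and 0 to 5 lower, with 0 to 6920 genes overall. The single-end libraries alone gave 17, 12, 5 and 6901. CR31B replicate 1 and DMSO replicate 1 were the libraries whose removal gave 17. Within the single-end libraries, calls rose from 17 to 26 with upper quartile and with total count scaling (45% and 44.2% of all genes) and to 30 with GC and length offsets and the replicate block (51.2%). Lower calls were 16, 15 and 19 under these settings (27%, 25.1% and 27.5% of all genes), 13 with the replicate block (23.1%), 10 with GC and length offsets (20.1%), 12 with no filter (11.2%), 11 with a filter of 1 CPM (25.3%) and 8 with DESeq2 (17.6%), against 5 (17.6%). Leaving out 1 library gave 15 to 20 calls, 9 to 14 higher and 4 to 8 lower. The replicate block lost 0 calls and added 8 lower ones. In the 8 libraries same-numbered libraries did not pair (correlations -0.527, -0.078, 0.159 and -0.108), and the replicate block called 0.

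Among the 20 members and 9 other genes whose values per library are given, signs turned for 4 near 0. Over 8 libraries DDX3X was -0.0056 with RLE scaling and with DESeq2, -0.041 with upper quartile, -0.034 with total counts, -0.13 with GC and length offsets (with or without the replicate block), -0.0098 with no filter, -0.010 with a filter of 1 CPM, and between -0.049 and 0.052 without 1 library. DHX29 was -0.011 with GC and length offsets, -0.016 with the block added, and between -0.023 and 0.15 without 1 library. EIF4A3 lay between -0.049 and 0.087 without 1 library. In the single-end libraries DDX3X was -0.054, -0.037, -0.21 and -0.21 with upper quartile, total count, GC and length, and these with the block, and between -0.022 and 0.12 without 1 library. EIF4A1 lay between -0.10 (without DMSO replicate 2) and 0.47, and EIF4A3 was -0.011 with upper quartile scaling. The cause was not tested. The remaining values of these 20 members and 9 other genes kept their direction, 924 on the same side of the threshold. Signs also turned in the single-end libraries for members outside these, not all of them listed here. With GC and length offsets DDX18 went from 0.13 to -0.058, DDX10 from 0.10 to -0.089 and DHX15 from 0.012 to -0.20. The smallest helicase change called in the single-end libraries as reported was 0.23 in absolute log2 terms, which is not a limit of detection. Larger differences, such as those of DDX25 (-0.38) and DHX37 (-0.33), did not pass in that fit. Smaller ones passed under other settings, such as DHX40 (-0.11) with the replicate block.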

Other observations

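RNA helicases outside the DDX and DHX names were examined as a list of their own. Of 17 tested, 9 rose (52.9%, beside 23.8% of all genes) and 2 fell (11.8%, beside 17.6%) in the single-end libraries, with a median of 0.27. With GC and length offsets 6 were higher (35.3%, beside 19.3%) and 4 lower (23.5%, beside 20.1%), with a median of 0.087. Over all 8 libraries 0 passed, with a median of 0.13. ASCC3, which rescues stalled ribosomes, stood at 103, 153, 170.2 and 186 CPM in CR31B replicates 1 to 4 and 167, 95.8, 98.7 and 114 CPM in DMSO replicates 1 to 4, with 0.73 ± 0.082 (SE, n = 3 against 3; edgeR adjusted p = 6.89e-05). UPF1, the helicase of nonsense-mediated decay, stood at 71.9, 112, 96.1 and 114 CPM in CR31B replicates 1 to 4 and 119, 62.0, 69.9 and 78.3 CPM in DMSO replicates 1 to 4, with 0.62 ± 0.089 (SE, n = 3 against 3; edgeR adjusted p = 3.46e-04). AQR, of the spliceosome, stood at 97.6, 137, 138 and 148 CPM in CR31B replicates 1 to 4 and 144, 84.0, 95.0 and 98.7 CPM in DMSO replicates 1 to 4, with 0.61 ± 0.066 (SE, n = 3 against 3; edgeR adjusted p = 4.76e-05). DICER1 (-0.43) and SUPV3L1 (-0.38) fell. Replicate 1 ran opposite for ASCC3, UPF1 and AQR.

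Of the eIF4A genes, which encode the target of CR31B, EIF4A2 stood at 306, 327, 341 and 355 CPM in CR31B replicates 1 to 4 and 414, 264, 277 and 284 CPM in DMSO replicates 1 to 4, with 0.31 ± 0.053 (SE, n = 3 against 3; edgeR adjusted p = 9.58e-04). Over all 8 libraries its difference was 0.13 (edgeR adjusted p = 0.72). EIF4A3, of the exon junction complex, stood at 135, 156, 142 and 162 CPM in CR31B replicates 1 to 4 and 164, 139, 148 and 147 CPM in DMSO replicates 1 to 4, with a difference of 0.086 ± 0.058 (SE, n = 3 against 3; edgeR adjusted p = 0.272). EIF4A1 stood at 0.549, 0.553, 0.638 and 0.627 CPM in CR31B replicates 1 to 4 and 0.383, 0.388, 0.489 and 0.837 CPM in DMSO replicates 1 to 4, and its groups overlap. Of its exonic bases 48.6% are shared with same-strand genes, among them the readthrough SENP3-EIF4A1, and the part of this in its low count was not tested. DDX47, left out by the level threshold, shares 36.5% of its exonic bases with APOLD1.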
